A study of Mus musculus with 40 samples.

Results

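Aortas of mice pretreated with the calcineurin (Cn) inhibitor cyclosporin A (CsA) were compared after 24 h of angiotensin II (Ang-II) infusion and without Ang-II, across all genes. The comparison uses 6 of the 40 libraries of the series, chosen by their labels alone, with 3 libraries per group. All mice were male WT C57BL/6J of 10 to 12 weeks. Both groups carried a subcutaneous CsA minipump of 5 mg/kg/d, in place for 5 days when Ang-II was started in the second group. The group called CsA received no Ang-II, and the group called CsA Ang-II 24 h received a second minipump with Ang-II at 1 µg/kg/min for 24 h. The second pump cannot be told apart from Ang-II, nor can the longer time on CsA if the CsA group was collected at 5 days. Ang-II-treated mice entered the study only if systolic blood pressure exceeded 130 mmHg, so that mice with a smaller pressure response are not represented, and CsA-treated mice were removed where block of NFAT dephosphorylation could not be seen in the thymus. Each library pooled the aortas of 3 mice, stripped of adventitia and perivascular tissue, and p-values therefore measure the spread between pools. Another 12 libraries of the same experiment served for comparison. They came from CsA-pretreated mice given Ang-II for only 2 h and from WT mice that had no CsA pump, which were operated on without a pump (WT) or given Ang-II for 24 h (WT Ang-II 24 h). WT mice given Ang-II for 2 h entered only the estimate of the spread. Because the WT controls had no pump in place of the CsA pump, CsA and the pump cannot be told apart in any comparison of CsA with WT mice.

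Ang-II is the effector peptide of the renin-angiotensin system and raises blood pressure through receptors on vascular smooth muscle. There it mobilises calcium and activates kinases, and over hours the vessel wall makes more extracellular matrix and growth factors. Cn is a calcium-dependent phosphatase that dephosphorylates the NFAT transcription factors. CsA blocks that phosphatase activity in complex with cyclophilin, and the comparison asks which genes still respond to Ang-II when the phosphatase is inhibited.

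Values are given as the deposited signal, a read count normalised to library size. The 6 libraries held between 20387774 and 38900009 reads assigned to genes, and the third CsA Ang-II 24 h library was the deepest. That library also stood apart from the other 2 of its group: the chi-square per degree of freedom between their reads was 79.4 and 72.4 against it and 11.1 between the other pair. Between pairs of CsA libraries it was 49.55, 35.91 and 44.64, so that group was spread as well, and the value also grows with depth. All 8 smooth muscle markers were detected in every library, the lowest being Myocd. Their summed signal was 16623, 18702 and 17310.0 in the CsA libraries and 27157, 27986 and 19378 after 24 h of Ang-II, so the third 24 h library lay nearest to the CsA libraries. Markers of other cells were present too: the 11 adipocyte markers summed to 5517, 4555 and 7696 in CsA and to 2719, 3608 and 7623 at 24 h, and the 12 macrophage markers to 405, 353 and 411 in CsA and 336, 301 and 494 at 24 h. The third 24 h library had the most adipocyte, macrophage and endothelial marker signal of its group. The 7 erythrocyte markers summed to 139.7, 133 and 139 in CsA and 2496, 392 and 389.9 at 24 h. In whole tissue, fewer cells of a type and less RNA per cell cannot be told apart, and this holds for every gene below.

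After 24 h of Ang-II, 715 of 13738 protein-coding genes tested were higher in CsA-pretreated aorta (5.2%) and 518 were lower (3.77%), with limma and a Benjamini-Hochberg adjusted p under 0.05. Igfbp2, Pgf, Thbs1, Wisp2 and Lox were among the genes that rose, with 16 of 24 genes of cholesterol synthesis and uptake. Among those that fell were Myh7 and other cardiac muscle genes, Gbp6, and 24 of 33 interferon-inducible genes. The changes were mostly small: the median absolute log2 fold change of the called genes was 0.59, and 93 genes rose and 163 fell more than 2-fold. The median over all genes was -0.024 and the median standard error (SE) 0.15 on the log2(signal + 0.5) scale, on which all fold changes are given. The count of called genes was 532 and 629 without the first or second CsA library, 487 and 533 without the first or second 24 h library, and 1814 without the third 24 h library. All 15 of the genes named for the largest rises passed the test under each of the 17 other settings tried, among them every omission of 1 library, whereas 2 of the 15 named for the largest falls did, Gbp6 and Gbp10.

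**Figure D1:**
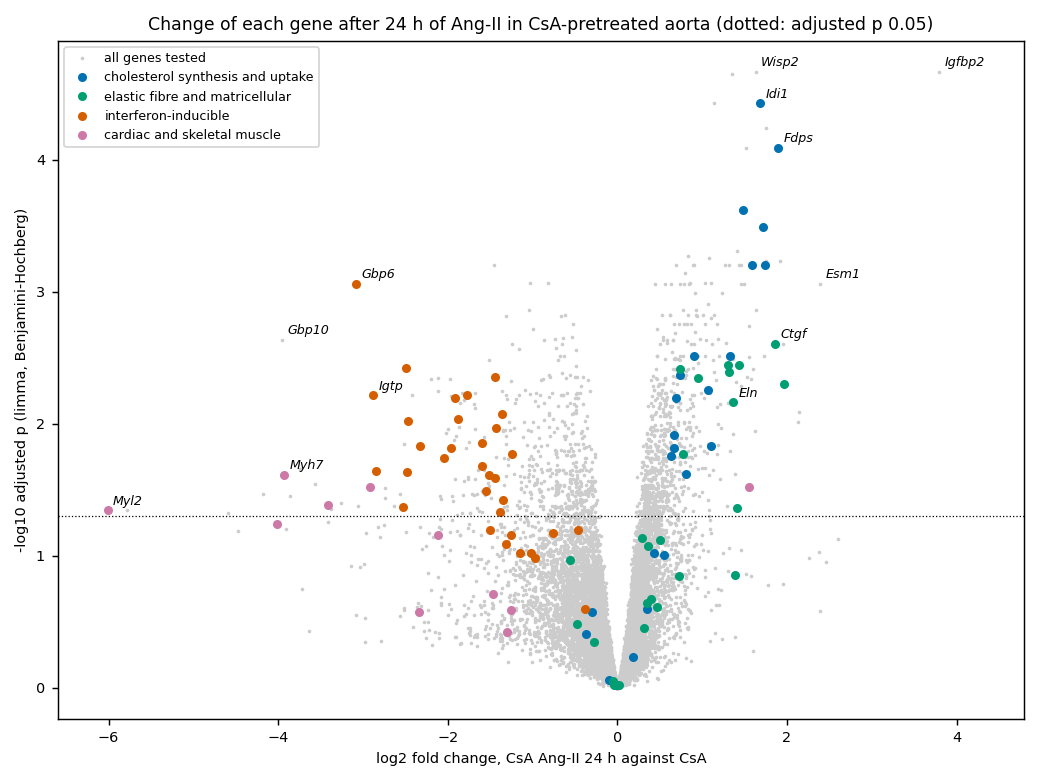
Change of each gene after 24 h of Ang-II in CsA-pretreated aorta (x axis, log2 fold change) against its -log10 adjusted p (y axis); each point is 1 of 13738 genes, 4 lists are coloured and the dotted line marks the threshold of 0.05. The cholesterol genes past the line lie on the right, led by Fdps at 1.90, and the interferon-inducible genes past it lie on the left, led by Gbp6 at -3.08.

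Igfbp2, Gdf6 and Pgf were among the 15 genes with the largest rises. Igfbp2, which binds insulin-like growth factors (IGFs), rose most among the genes named by the rule. It lies on chromosome 1, 72824503 to 72852474 (GRCm38). Its signal was 10.8, 13.9 and 15.3 in the 3 CsA libraries and 260.2, 234 and 112 at 24 h, a log2 fold change of 3.80 ± 0.32 (SE; limma adjusted p = 2.15e-05), or 13.9-fold. Every 24 h library lay above every CsA library, and the third was the lowest of them. The ligand Igf1 rose from 44 ± 8.43 to 99.4 ± 15.5 (mean ± SD, n = 3 each; limma adjusted p = 0.00745).

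Pgf, a ligand of the vascular endothelial growth factor family, rose from 5.36, 11.1 and 6.06 to 32.5, 27.2 and 25.9 (log2 fold change 1.92 ± 0.24, limma adjusted p = 0.000589). Gdf6, a bone morphogenetic protein (BMP) ligand, was low in CsA at 0.615, 1.04 and 2.56 and reached 5.84, 8.26 and 5.03. Esm1, an endothelial proteoglycan, rose from 1.56, 1.89 and 1.94 to 10.4, 10.6 and 13.9 (log2 fold change 2.39 ± 0.33, limma adjusted p = 0.000869). Of the 32 genes of the TGF-beta, BMP, Smad and Id list, 1 passed, the ligand gene Bmp4, at 25.3, 25.7 and 36.7 in CsA and 53.2, 57 and 75.4 at 24 h (limma adjusted p = 0.0142), where 5.2% of all genes were higher and 3.77% lower, so that this count is no result about the list. Endothelin-1, the vasoconstrictor peptide encoded by Edn1, rose from 15.1, 14.6 and 16.3 to 25, 34.3 and 50.8 (log2 fold change 1.18 ± 0.18, limma adjusted p = 0.00177), and here the third 24 h library was the highest. Bdnf, a neurotrophin, had 9.69, 10.8 and 10.2 in CsA and 34, 41.4 and 14.6 at 24 h (limma adjusted p = 0.0242). Of the 27 measured genes listed as other growth factors and neurotrophins, 7 rose and 1 fell, which was Igfbp5, with a log2 fold change of -0.72, and the list's median was -0.039, with 13 members above 0 and 14 below. Bmp4 did not pass without the first or second CsA library, Bdnf with any 1 library other than the third 24 h one left out and Igfbp5 without the first, second or the third CsA or the second 24 h library (limma adjusted p up to 0.0631, 0.115 and 0.141, in that order).

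Matrix and matricellular genes rose as well. The list of 25 elastic fibre and matricellular genes had 10 members higher and 0 lower, with a median of 0.50 against -0.024 for all genes, and without each library in turn 8 to 12 members were higher. In a fit of only the 6 libraries compared, 6 members were higher. Thbs1 encodes thrombospondin-1, a matricellular protein that activates latent TGF-beta. It stood at 122, 101 and 56.9 in CsA and 274, 322 and 477 at 24 h, a log2 fold change of 1.96 ± 0.37 (limma adjusted p = 0.00498). Ctgf, the founding connective tissue growth factor of the CCN family, went from 836, 879 and 703 to 3044, 3931 and 2051 (limma adjusted p = 0.00248). Wisp2, another CCN protein, rose from 102, 113 and 133 to 378, 345 and 355, with a log2 fold change of 1.63 ± 0.14 (limma adjusted p = 2.15e-05).

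Elastin, the elastic fibre protein encoded by Eln, had 1347, 2024 and 1847 in CsA and 5384, 6001 and 2669 at 24 h (log2 fold change 1.37 ± 0.27, limma adjusted p = 0.00686). The groups did not overlap, but the third 24 h library sat much closer to the CsA libraries than the other 2. Fibronectin (Fn1) went from 1727, 1572 and 1384 to 4674, 4205 and 2935 (limma adjusted p = 0.00404), again with the third 24 h library lowest. The gene of tenascin C also passed.

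Lysyl oxidases cross-link elastin and collagen. Lox was at 101, 101 and 105 in CsA, where the 3 libraries hardly differed, and at 362, 387 and 293 at 24 h (log2 fold change 1.75 ± 0.22, limma adjusted p = 0.000589). Loxl2 rose from 31.7, 30.9 and 28.1 to 71.8, 66.6 and 63.7 (1.14 ± 0.11, limma adjusted p = 3.72e-05), and Loxl1, Loxl3 and Loxl4 passed too, with log2 fold changes of 0.86, 0.57 and 1.22. In all, 8 of the 17 collagen processing genes were higher and 0 lower, and 5 to 9 were higher when 1 library was left out. In a fit of the 6 libraries alone 6 were higher. Of the 20 collagen genes 6 were higher, Col1a1 by 0.73 and Col12a1 by 0.84, and 2 were lower. The collagen count rested on single libraries: 0 members were higher without the first 24 h library, 1 without the second, and 11 without the third. In the fit of the 6 libraries alone 2 collagen genes were higher and 1 was lower. Without Ang-II, 10 of the 20 collagen genes and 7 of the 17 collagen processing genes were lower in CsA than in WT, and 0 were higher. Of all genes, 11.4% were lower and 13.9% higher in that comparison. The collagen sum was 14137, 12874 and 13579 in WT. It was 8257, 8753 and 7789 in CsA and 13457, 12826 and 9265 at 24 h. Loxl3 did not pass without the first or second CsA or the first or second 24 h library, Loxl4 and Col1a1 without the first or second 24 h library and Col12a1 without the third CsA or the first 24 h library (limma adjusted p up to 0.0853, 0.052, 0.0691 and 0.0639, in that order). Col27a1, a fibrillar collagen of cartilage, fell from 50.5, 46.9 and 40.3 to 31.6, 21.7 and 22.7 (limma adjusted p = 0.0023).

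Among the genes of matrix turnover, 7 of 23 rose and 1 fell. Timp1, an inhibitor of matrix metalloproteinases, went from 9.79, 15.2 and 11.3 to 34.1, 38.9 and 50.0 (log2 fold change 1.73 ± 0.29, limma adjusted p = 0.00308). Plaur, the urokinase receptor, went from 9.58, 9.47 and 8.34 to 28.2, 32.2 and 27.7 (limma adjusted p = 0.00138), and the membrane-bound metalloproteinase Mmp14 from 42.1, 44.2 and 46.1 to 72.3, 69.3 and 63.8 (limma adjusted p = 0.0015). Mmp15, a related membrane-bound protease, was lower at 7.32, 5.58 and 6.26 than at 24.5, 15.3 and 19 in CsA (limma adjusted p = 0.028). Mmp15 did not pass without the first or the third CsA or the first or second 24 h library (limma adjusted p up to 0.11). Has1, a hyaluronan synthase, was low, at 1.21, 1.16 and 0.866 in CsA and 2.6, 4.27 and 6.49 at 24 h, but its groups did not overlap (limma adjusted p = 0.00457).

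**Figure D2:**
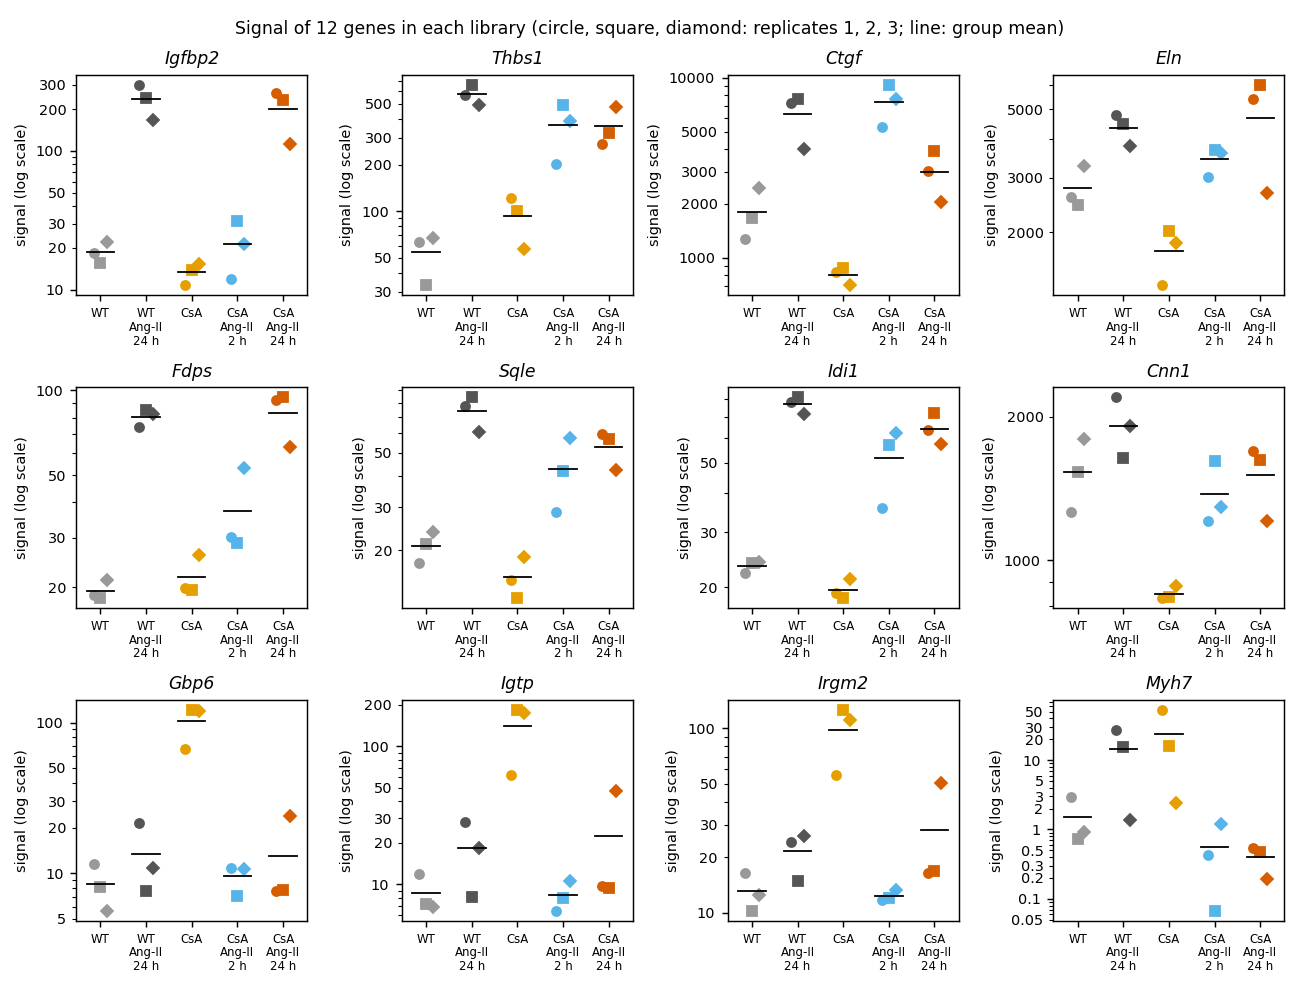
Signal of 12 genes (y axis, log scale) in each library of 5 groups (x axis, from left to right WT without and with Ang-II for 24 h, then CsA alone and with Ang-II for 2 h or 24 h); points are libraries, with a marker per replicate number, and lines are group means. The 24 h libraries of Igfbp2 (260.2, 234 and 112) lie above all CsA libraries, and those of Gbp6 (7.6, 7.7 and 24) lie below them.

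Genes of cholesterol synthesis and uptake rose together. Of the 24 measured members of that list, 16 were higher after 24 h of Ang-II and 0 were lower, with a median of 0.71. The summed signal of the list was 674, 550.5 and 704 in the CsA libraries and 1185, 1216 and 1094 at 24 h, and the groups did not overlap. The count was 12 to 16 without each library in turn and 14 in a fit of the 6 libraries alone. The members that passed span the pathway. Among them, Hmgcs1, Mvk and Mvd make and process mevalonate, Idi1 and Fdps build the isoprenoid chain, Sqle and Lss open the sterol branch, and Cyp51, Msmo1, Nsdhl, Hsd17b7 and Sc5d act between lanosterol and cholesterol. Srebf2, a transcription factor that controls these genes, also passed. Hmgcs1 did not pass without the second CsA or the first or second 24 h library, Mvk without the first CsA or the second 24 h library and Nsdhl without the second CsA or the second 24 h library (limma adjusted p up to 0.0669, 0.0599 and 0.076, in that order).

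Genes of this family are known for sterol-response elements in their promoters, and the promoter of Hmgcs1, in which such letters were found, is shown for that reason. In the RefSeq promoter table (GRCm38.p6), the 250 bases before the start could be read for 17 of the 24 genes. A gene counted where any of its promoters held a match. The 9 letters TCACNCCAC, searched on both strands, were found in 1 of the 17, against 1.225% of 27025 genes. They are in capitals here.
Hmgcs1, chr13:119690184-119690252, plus strand: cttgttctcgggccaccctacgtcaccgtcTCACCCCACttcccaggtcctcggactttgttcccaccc
The match describes the letters only. Hmgcs1 itself went from 71.3, 58.7 and 82.1 to 114, 113 and 108 (log2 fold change 0.67 ± 0.16, limma adjusted p = 0.0153), close to the median of the list.

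Fdps, Sqle and Idi1 were among the members with the largest changes. Fdps (chromosome 3, 89093588 to 89101959) makes farnesyl diphosphate, the branch point to sterols and protein prenylation. Its signal was 19.9, 19.5 and 26 in CsA and 92.3, 94.3 and 62.9 at 24 h, a log2 fold change of 1.90 ± 0.20 (limma adjusted p = 8.12e-05). Sqle, squalene epoxidase, rose from 15, 12.7 and 18.8 to 59.4, 57 and 42.5, and Idi1, an isomerase, from 19.2, 18.5 and 21.3 to 63.6, 72.2 and 57.3 (limma adjusted p = 0.000629 and 3.72e-05). In each of the 3 genes the third 24 h library was the lowest of its group. Hsd17b7 and Cyp51 had log2 fold changes of 1.58 ± 0.21 and 1.49 ± 0.17. Srebf2 rose less, from 84.6, 80.8 and 90.2 to 154, 153 and 110.4 (limma adjusted p = 0.00637). Insig1, the sterol-sensing retention protein, had 75.3, 38.6 and 45.3 in CsA and 64.3, 66.5 and 63.7 at 24 h and did not pass, with 1 CsA library above every 24 h library.

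Part of the cholesterol change was present at 2 h. Against the CsA libraries, 10 of the 24 members were higher and 0 lower at 2 h of Ang-II, where 12.3% of all genes were higher. The labels of these groups give only a replicate number, but same-numbered libraries deviated together. With the replicate number as a block, 11 members were higher, and 9 were in a blocked fit of these 6 libraries alone. The 2 h and 24 h comparisons share the CsA libraries. Tested against each other, 7 members were higher at 24 h than at 2 h and 0 were lower, where 7.43% of all genes were higher. Fdps was among them, at 30.1, 28.6 and 53.2 at 2 h (log2 difference 1.18 ± 0.20, limma adjusted p = 0.00101). Sqle at 2 h was 28.6, 42.2 and 57.5, and its libraries overlapped those at 24 h. In WT mice, 17 of the 24 were higher and 1 was lower after 24 h of Ang-II, where 18.1% of all genes were higher and 16.9% lower. The difference between the CsA and WT responses passed for 0 of 24 members with limma, and its median was -0.093; for Fdps it was -0.13 ± 0.28 (limma adjusted p = 0.803).

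Contractile genes of smooth muscle rose by less. Of 25 contractile genes, 5 were higher and 0 lower, with a median of 0.20. Calponin (Cnn1), a regulator of smooth muscle actomyosin, rose from 832, 836 and 884 to 1697, 1624 and 1206 (log2 fold change 0.81 ± 0.18, limma adjusted p = 0.0109). Actg2, the enteric smooth muscle actin, rose from 182, 185 and 203 to 363, 358 and 339 (limma adjusted p = 0.00376), and transgelin (Tagln), Pdlim7 and Tpm2 passed with 0.77, 0.64 and 0.61. The main smooth muscle actin and myosin genes did not pass: Acta2 had 5679, 6748 and 6480.1 in CsA and 10610.0, 11140.0 and 6759.6 at 24 h, and Myh11 4779.8, 4858 and 4475 in CsA and 5493, 5636 and 4268 at 24 h. In both genes the first 2 libraries at 24 h were above every CsA library, and the third lay close to the CsA libraries. The count of 5 fell to 2 without the first CsA library, to 3 without the third, and to 1 without the first or the second 24 h library, and rose to 7 without the third 24 h library. It was 3 in a fit of the 6 libraries alone. Cnn1 did not pass without the first or second 24 h library and Pdlim7 without the first or second CsA or the first or second 24 h library (limma adjusted p up to 0.0567 and 0.0893). Tagln did not pass with any 1 library other than the third 24 h one left out and Tpm2 without the first or the third CsA or the first or second 24 h library (limma adjusted p up to 0.122 and 0.125).

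These genes, like many of the matrix genes above, started from a lower level in CsA-pretreated mice. In the CsA libraries 21 of the 25 contractile genes were lower than in WT and 0 were higher, where 11.4% of all genes were lower and 13.9% higher. Cnn1, for example, was at 1260.5, 1527 and 1791 in WT. In the CsA libraries the adipocyte marker sum was also above that of WT, which was 1426, 1551 and 820.0, and the part of other cell types in these levels was not tested. Of the actin cytoskeleton and adhesion list, 9 of 25 rose after 24 h and 0 fell, with a median of 0.42. The fibronectin receptor subunit Itga5 went from 304, 369.8 and 376 to 1103, 1201 and 771 (limma adjusted p = 0.00443), and tropomyosin 4 (Tpm4) from 168, 192 and 189 to 352, 344 and 311 (limma adjusted p = 0.00177). That count was 3 without the first CsA library or without the first or second 24 h library, and 4 in a fit of the 6 libraries alone.

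Interferon-inducible genes fell as a group. Of 33 measured members, 24 were lower after 24 h of Ang-II and 0 were higher, and the list's median was -1.51. Interferons act through transcription factors that bind interferon-stimulated response elements (ISRE) and gamma-activated sites (GAS) in the promoters of such genes. Of the 33 genes, 25 had a promoter in the RefSeq table (GRCm38.p6). The ISRE core is GAAA and GAAA with any 2 bases between them. Searched on both strands in the 250 bases before the start, it occurred in 16 of the 25 genes (64%) against 3.463% of 27025 genes. The GAS letters TTCNNNGAA occurred in 10 (40%) against 8.13%. The lists were assembled from genes known for this regulation, so the shares describe the members. Of the members that fell, 7 are printed 5′ to 3′ on the gene's strand, because they show how the letters sit. Capitals mark every match. The ISRE letters read TTTC and TTTC where they lie on the other strand, as in the 3 Gbp genes, and in Irgm1 and Gbp3 the capitals mark overlapping ISRE matches.
Igtp, chr11:58199481-58199555, plus strand: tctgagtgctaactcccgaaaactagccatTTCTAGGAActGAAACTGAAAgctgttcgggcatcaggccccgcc
Irgm2, chr11:58214872-58214952, plus strand: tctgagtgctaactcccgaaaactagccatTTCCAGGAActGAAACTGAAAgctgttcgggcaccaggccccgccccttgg
Tgtp2, chr11:49064243-49064323, minus strand: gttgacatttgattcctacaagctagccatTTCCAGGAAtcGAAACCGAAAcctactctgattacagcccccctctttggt
Irgm1, chr11:48871421-48871480, minus strand: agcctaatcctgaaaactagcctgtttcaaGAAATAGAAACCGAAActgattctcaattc
Gbp2, chr3:142620574-142620643, plus strand: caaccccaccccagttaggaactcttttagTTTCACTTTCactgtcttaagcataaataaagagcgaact
Gbp3, chr3:142559969-142560043, plus strand: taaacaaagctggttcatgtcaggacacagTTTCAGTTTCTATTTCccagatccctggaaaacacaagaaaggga
Gbp7, chr3:142530200-142530322, plus strand: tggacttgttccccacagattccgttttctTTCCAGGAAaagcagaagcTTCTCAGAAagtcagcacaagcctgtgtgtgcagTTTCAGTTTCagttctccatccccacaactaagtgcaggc
In Igtp, Irgm2 and Tgtp2, immunity-related GTPase genes of chromosome 11, the GAS and ISRE letters lie side by side.

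The guanylate-binding proteins (GBPs) and immunity-related GTPases attack intracellular pathogens and are induced by interferon gamma. Gbp6 (chromosome 5, 105270702 to 105293698) had a signal of 67.2, 121 and 119 in CsA and 7.6, 7.7 and 24 at 24 h, a log2 fold change of -3.08 ± 0.43 (limma adjusted p = 0.000869). Gbp10 went from 14.2, 38.6 and 52.6 to 0.596, 1.54 and 3.19 (limma adjusted p = 0.0023), but Gbp6 and Gbp10 are near-identical copies between which reads may have been divided, and the split between them is uncertain. Gm43302, a predicted gene, had 7.89, 37.4 and 32.2 in CsA and 1.12, 0.0253 and 6.85 at 24 h (limma adjusted p = 0.0287). Gm43302 did not pass without the second or the third CsA or the first or second 24 h library (limma adjusted p up to 0.132). Igtp fell from 61.4, 182 and 174 to 9.79, 9.37 and 47.8 (log2 fold change -2.88 ± 0.56, limma adjusted p = 0.00607). The spread within the groups was wide: the first CsA library was the lowest of the 3 and the third 24 h library the highest of its group.

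Irgm2, with its GAS and ISRE letters printed above, went from 56.1, 125 and 111 to 16.4, 16.7 and 50.6 (limma adjusted p = 0.00643), and Irgm1 from 33, 100.4 and 63.4 to 18.9, 16.2 and 33.4 (limma adjusted p = 0.0107). The third 24 h library of Irgm1 was just above the first CsA library. Tgtp2 had 36.5, 101 and 50.8 in CsA and 4.31, 2.8 and 32.1 at 24 h (limma adjusted p = 0.0227), with the same caution about its copy Tgtp1. Gbp2 went from 65.4, 243 and 152 to 28.5, 28.3 and 59, Gbp3 from 38.3, 109.8 and 72.8 to 12, 7.9 and 41.6 and Gbp7 from 54.3, 115 and 87.3 to 16.1, 17.5 and 45.8 (limma adjusted p = 0.00919, 0.0182 and 0.00607). The groups overlapped in Gbp3 and not in Gbp2 or Gbp7, and in all 3 genes the third 24 h library was the highest of its group. Ifi44, a gene typical of type I interferon, fell from 6.56, 13.3 and 7.49 to 0.5, 0.884 and 2.65 (limma adjusted p = 0.00377). Irgm1 did not pass without the first or second 24 h library and Tgtp2 and Gbp3 without the second CsA or the first or second 24 h library (limma adjusted p up to 0.0549, 0.111 and 0.0912, in that order).

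Over the whole list the summed signal was 1060.2, 2628 and 2020.1 in the CsA libraries and 395, 360.4 and 974 at 24 h. It was 394, 294 and 323 in WT, 581, 337 and 508 in WT Ang-II 24 h and 331, 296 and 369 in CsA Ang-II 2 h. The 3 CsA libraries were thus the highest of these groups, and the first and second 24 h libraries were near the level of WT. In the CsA libraries 32 of the 33 members were higher than in WT, where 13.9% of all genes were higher. At 2 h of Ang-II 33 of 33 were lower than in CsA, where 7.84% of all genes were lower. That count was 33 with the replicate block and 32 in the blocked fit of these 6 libraries. These comparisons share the CsA libraries with the 24 h comparison, so the members' fall at 2 h and at 24 h and their height in CsA are not independent of each other. Between 24 h and 2 h, libraries that are not shared, 0 of 33 members passed in either direction with limma. The fall at 24 h also depended on single libraries: 8 members passed without the first or the second 24 h library, 10 without the second CsA library, 16 without the third and 30 without the third 24 h library. In a fit of the 6 libraries alone 2 members passed.

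The antigen presentation list had 8 of 16 members lower, 0 higher and a median of -0.90, and again the third 24 h library had the highest sum of its group. Its summed signal was 1647, 2497 and 2776 in CsA and 1182, 1130.4 and 1938 at 24 h. Tap1, a subunit of the peptide transporter for MHC class I, fell from 28, 68.3 and 64.2 to 10.5, 10.7 and 30.8 (log2 fold change -1.68 ± 0.36, limma adjusted p = 0.011). Nlrc5 and Ciita, the transactivators of MHC class I and class II genes, fell from 19.4, 31.4 and 28.9 to 6.6, 8.41 and 17.5 and from 2.41, 5.07 and 4.64 to 0.691, 0.682 and 1.73 (limma adjusted p = 0.0112 and 0.0125). The count was 2 without the second CsA library or the first or second 24 h library, 5 without the third CsA library, and 14 without the third 24 h library. In a fit of the 6 libraries alone it was 3. Cxcl9, a chemokine induced by interferon gamma, fell from 10.6, 14.5 and 17.2 to 1.6, 3.21 and 5.18 (limma adjusted p = 0.0118). Tap1, Nlrc5 and Ciita did not pass without the second CsA or the first or second 24 h library and Cxcl9 without the first 24 h library (limma adjusted p up to 0.059, 0.06, 0.059 and 0.0632, in that order). The macrophage markers had 0 of 12 members called in either direction with limma, and the T, NK and B cell markers, of which 4 of 14 could be tested, had 0. The 4 tested were Cd4, Lck, Cd8a and Cd79a, with summed signals of 2.53, 3.63 and 2.04 in CsA and 2.1, 1.36 and 2.66 at 24 h.

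**Figure D3:**
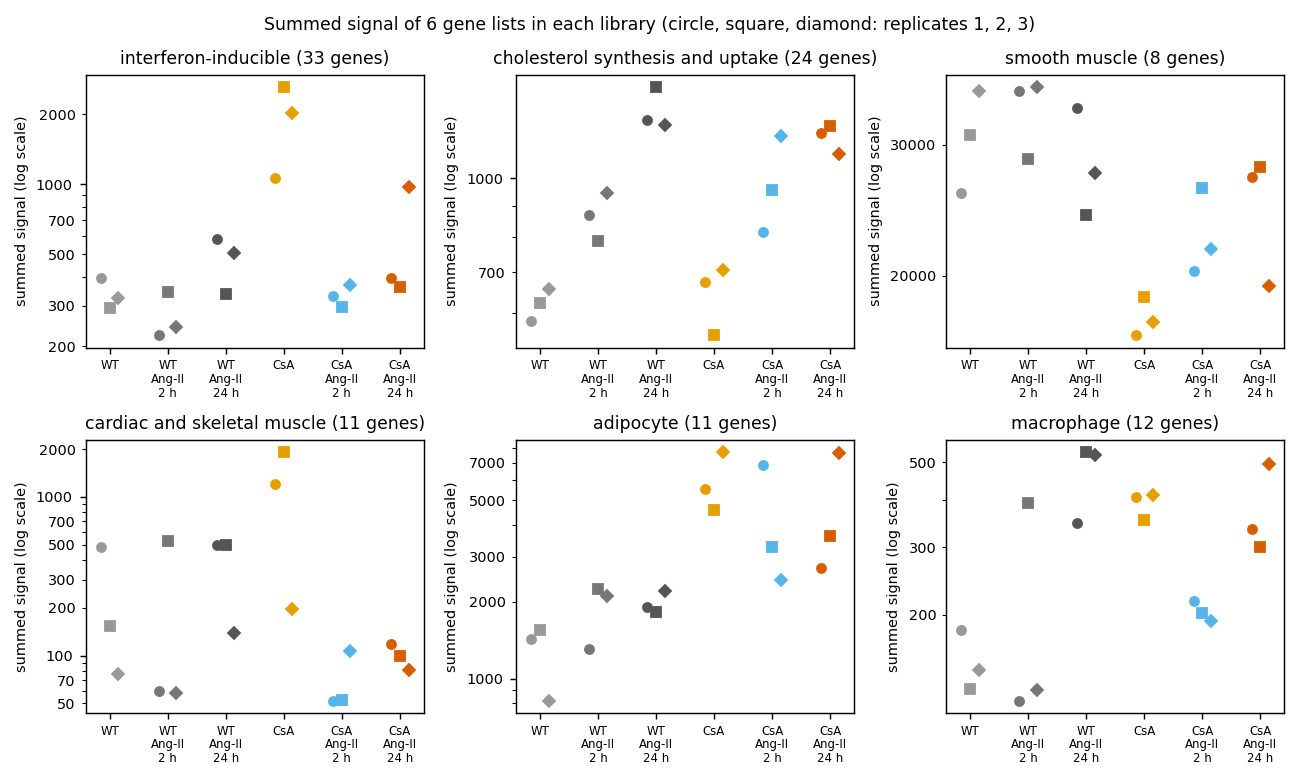
Summed signal of 6 gene lists (y axis, log scale) in every library of the 6 groups (x axis); a point is 1 library. The 3 CsA libraries have the highest interferon-inducible sums (1060.2, 2628 and 2020.1), and the cholesterol sums at 24 h in CsA (1185, 1216 and 1094) lie above those of CsA.

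The largest falls were those of cardiac muscle genes, which were high in the first and second CsA libraries. Of the 15 genes with the largest falls, Myl2, Myl3, Mybpc3, Myh7, Myom2, Mylk3, Tnni3, Lmod2, Trim72 and Actc1 encode sarcomere or striated muscle proteins. Myl2, the ventricular myosin light chain, had 49.5, 154 and 5.37 in CsA and between 0 and 2 reads in each 24 h library. Myh7, a cardiac and slow muscle myosin (chromosome 14, 54970684 to 54994626), had 52.3, 16 and 2.41 in CsA and 0.548, 0.48 and 0.192 at 24 h (log2 fold change -3.93 ± 1.00, limma adjusted p = 0.0243). Tnni3, cardiac troponin I, had 57.4, 123 and 8.84 in CsA and 4.46, 2.8 and 2.88 at 24 h, and Actc1, cardiac actin, 135, 286 and 53.1 in CsA and 29.8, 13.8 and 10.7 at 24 h (limma adjusted p = 0.041 and 0.0302). In each of these genes the third CsA library was the lowest of its group by far. Myh7 did not pass without the first or second CsA or the first or second 24 h library, Tnni3 with any 1 library other than the third CsA one left out and Actc1 without the first or second CsA or the second or the third 24 h library (limma adjusted p up to 0.117, 0.146 and 0.113, in that order).

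The 11 measured cardiac and skeletal muscle markers summed to 1200.1, 1910.2 and 197 in CsA and to 118, 99.2 and 80.7 at 24 h. The third CsA library thus lay nearer to the 24 h libraries than to the other CsA libraries. In WT the sum was 483, 153 and 76.8, also with a wide spread. Of the 11, 4 were lower and 1 was higher, the fast skeletal troponin Tnnt3, at 3.39, 1.24 and 1.25 in CsA and 7.36, 5.03 and 6.38 at 24 h (limma adjusted p = 0.0301). The number lower was 0 without the first CsA library, without the second CsA library or without the second 24 h library, 1 without either of the other 24 h libraries, and 7 without the third CsA library. It was 1 in a fit of the 6 libraries alone. The part of that marker signal in the falls of the other muscle genes was not tested. Ryr2, the cardiac calcium release channel, also fell, from 87.3, 115 and 41.5 to 36.9, 36.2 and 21.8 (limma adjusted p = 0.0111), with the third CsA library again the lowest of its group, as did Eef1a2, an elongation factor of muscle and nerve, from 31.3, 43.5 and 26.1 to 0.786, 1.89 and 1.55 (limma adjusted p = 0.0343). Tnnt3 did not pass without the second or the third CsA or the first or second 24 h library, Ryr2 without the first or second CsA library and Eef1a2 with any 1 library other than the third 24 h one left out (limma adjusted p up to 0.103, 0.0528 and 0.109, in that order).

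**Figure D4:**
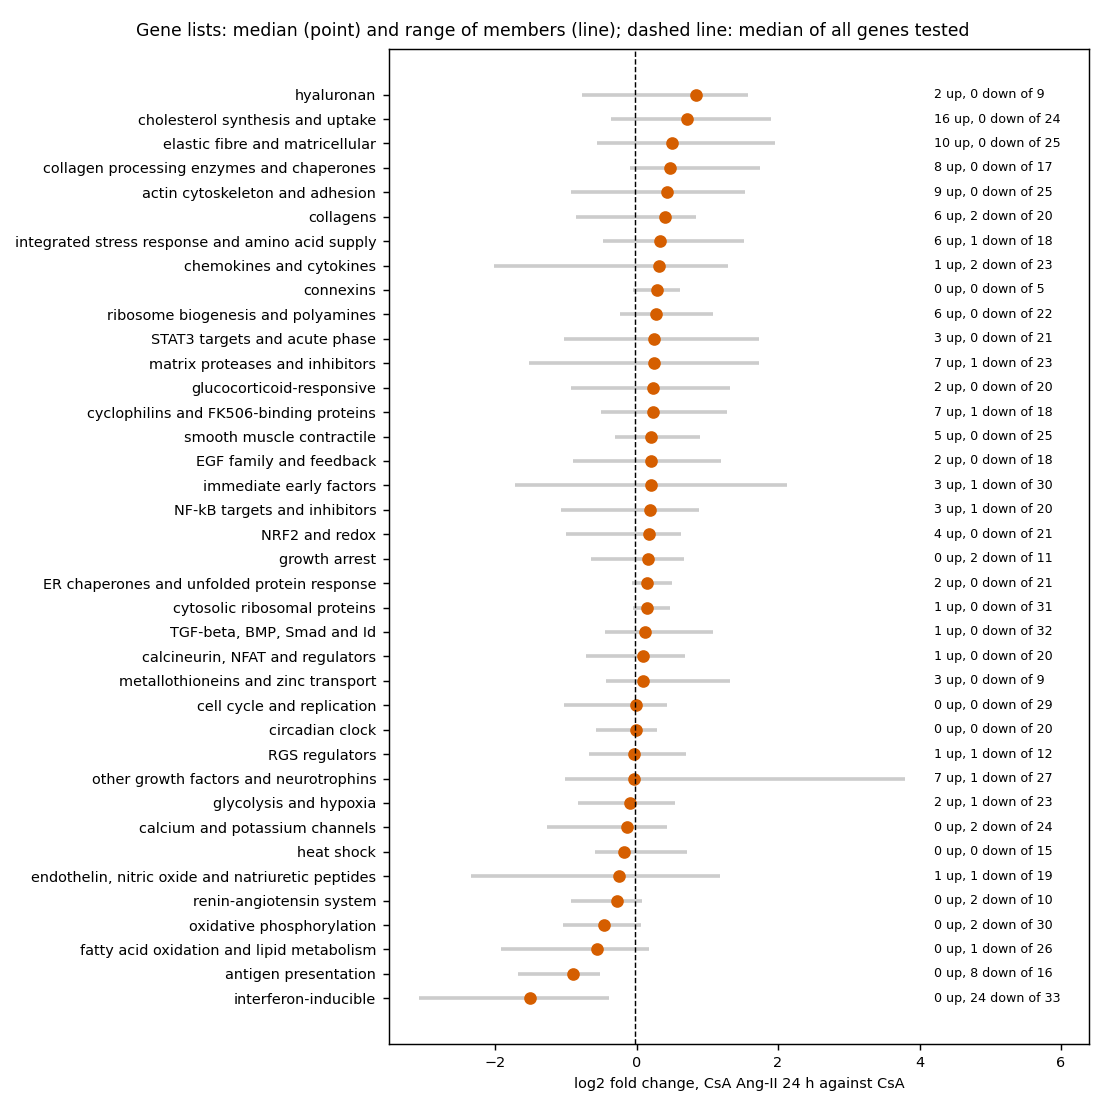
Median (point) and range (line) of the log2 fold change in CsA Ang-II 24 h against CsA (x axis) for each gene list (y axis), with the number of members higher and lower at the right; the dashed line is the median of all genes, -0.024. The cholesterol list has a median of 0.71, and the interferon-inducible list, of which every member lies below 0, has -1.51.

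Other lists changed in part, and their counts are to be read against the 5.2% of all genes that were higher and the 3.77% that were lower. In the list of the integrated stress response and amino acid supply 6 of 18 rose and 1 fell. The transcription factor Atf4 went from 92.8, 94.6 and 79.8 to 172, 182 and 155 (limma adjusted p = 0.00138), and the amino acid transporter Slc7a5 from 9.37, 9.68 and 9.14 to 29.6, 26.5 and 27.6 (log2 fold change 1.52 ± 0.16, limma adjusted p = 8.12e-05). In the list of ribosome biogenesis and polyamines 6 of 22 rose and 0 fell, and Bop1, a factor of the large ribosomal subunit, went from 27.3, 25.1 and 24.9 to 50.0, 41.2 and 43.5 (limma adjusted p = 0.000869). Of the cyclophilins and FK506-binding proteins, 7 of 18 rose and 1 fell. Ppia, a cyclophilin that CsA binds, rose from 440.4, 513 and 533 to 697, 733 and 630.2 (log2 fold change 0.47 ± 0.10, limma adjusted p = 0.0111), and Fkbp10, a collagen chaperone of the endoplasmic reticulum, from 75.4, 79.6 and 84 to 177, 169 and 114 (limma adjusted p = 0.00103). Ppia did not pass without the first CsA or the second 24 h library (limma adjusted p up to 0.06). Of 30 genes of oxidative phosphorylation 0 rose and 2 fell, with a median of -0.46, and of 26 genes of fatty acid oxidation 0 rose and 1 fell, with a median of -0.56. These 2 counts are near the share of all genes and are no result about the lists. The adipocyte markers had a median of -0.42 and 0 of 11 called with limma. The part of the adipocyte signal in these medians was not tested. The 29 genes of the cell cycle list had 0 members called with limma and a median of -0.0093.

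Further lists had a few members past the threshold. Of all genes 5.2% were higher and 3.77% lower, and counts of 1 or 2 members in lists of this size are no result about the lists. Of 9 genes of hyaluronan metabolism 2 rose and 0 fell, Has1 and the hyaluronan receptor Cd44, which went from 35.4, 33.5 and 32.1 to 79, 65.8 and 54.1 (limma adjusted p = 0.0222). Of 20 glucocorticoid-responsive genes 2 rose and 0 fell, and the metallothionein Mt2 was among them, at 81.7, 115 and 129 in CsA and 166, 241 and 485 at 24 h (limma adjusted p = 0.0161), with the third 24 h library highest. The zinc importer Slc39a14 rose from 62, 67 and 57.4 to 95.9, 110.0 and 127 (limma adjusted p = 0.00236). Of 21 genes of the NRF2 and redox list 4 rose and 0 fell, all 4 by small amounts, with log2 fold changes of 0.49 for Gsr, 0.53 for Nqo1, 0.56 for Srxn1 and 0.62 for Hmox1, the haem oxygenase. Of 20 NF-kB targets and inhibitors 3 rose and 1 fell. Those that rose were the inhibitors Nfkbia (0.52) and Nfkbiz (0.88) and the ubiquitin ligase Birc3 (0.44), and the 1 that fell was Irf1 (-1.06), a transcription factor induced by interferon gamma. Ereg, an epidermal growth factor receptor ligand, rose from 5.99, 8.09 and 5.37 to 16.7, 15.1 and 13.9 (limma adjusted p = 0.0144). Of 24 calcium and potassium channel and pump genes 0 rose and 2 fell, Ryr2 and Atp2a2 (-0.71), the calcium pump of the sarcoplasmic reticulum, both also expressed in heart. Hmox1 and Birc3 did not pass with any 1 of the 6 libraries left out (limma adjusted p up to 0.12 and 0.115). Gsr did not pass without the first or second CsA or the second or the third 24 h library, Nqo1 without the first or second CsA or the first or second 24 h library and Srxn1 with any 1 library other than the second 24 h one left out (limma adjusted p up to 0.0897, 0.112 and 0.114, in that order). Cd44 did not pass with any 1 library other than the third 24 h one left out, Mt2 without the first CsA library and Ereg without the first CsA or the first 24 h library (limma adjusted p up to 0.0945, 0.0795 and 0.059, in that order). Nfkbia did not pass without the first CsA or the first or second 24 h library, Irf1 without the second or the third CsA or the first or second 24 h library and Atp2a2 with any 1 library other than the third CsA one left out (limma adjusted p up to 0.0678, 0.16 and 0.133, in that order).

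Of the genes of Cn itself, only Ppp3cc passed. The regulatory subunit Ppp3r1 had 80.3, 87.2 and 78.3 in CsA and 81.9, 79.9 and 75.3 at 24 h, and the catalytic subunits Ppp3ca and Ppp3cb had log2 fold changes of -0.15 ± 0.10 and 0.045 ± 0.089 (limma adjusted p = 0.362 and 0.779). The catalytic subunit gene Ppp3cc rose from 7.12, 7.44 and 7.99 to 12.5, 12.9 and 11.1 (0.66 ± 0.12, limma adjusted p = 0.00489). It was the 1 of the 20 members of the Cn, NFAT and regulator list that passed. Of all genes 5.2% were higher and 3.77% lower, so that this count is no result about the list. Rcan1, a Cn inhibitor with an NFAT-driven isoform, had 32.3, 36.5 and 32.4 in CsA and 42.8, 33 and 38.5 at 24 h, a log2 fold change of 0.17 ± 0.21 that did not pass (limma adjusted p = 0.65). At 2 h its signal was 101, 163 and 134, above all of these, and it fell by 24 h (log2 difference -1.77 ± 0.21, limma adjusted p = 9.78e-05). In WT mice Rcan1 went from 36.9, 30.7 and 45.2 to 107, 132 and 74.7 at 24 h, and the response in CsA differed from it by -1.28 ± 0.30 (limma adjusted p = 0.0168). The table counts the gene and does not separate its isoforms.

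Genes known from vascular Ang-II responses varied. The early response gene Ier3 rose from 20.5, 20.8 and 16.7 to 28, 51.5 and 32.8 (limma adjusted p = 0.0347). The connexin gene Gja1 had 89.3, 84.3 and 83.7 in CsA and 146, 147 and 106 at 24 h, groups that did not overlap, with a log2 fold change of 0.61 ± 0.23 that did not pass (limma adjusted p = 0.105). Cyclooxygenase 2 (Ptgs2) had 13.4, 11.8 and 10.7 in CsA and 32, 32.6 and 14.7 at 24 h (limma adjusted p = 0.145), the third 24 h library lying near the CsA level. The Ang-II receptor gene Agtr1a was low, at 3.71, 2.67 and 6.76 in CsA and 2.22, 2.4 and 1.29 at 24 h (limma adjusted p = 0.308). Smad2, a mediator of TGF-beta signalling, had 23, 17.6 and 20.7 in CsA and 20.8, 20.6 and 23.2 at 24 h (limma adjusted p = 0.751), and its groups overlapped. Of 10 measured genes of the renin-angiotensin system 2 fell, where 3.77% of all genes were lower, and a count of 2 is no result about the list. They were Enpep, the aminopeptidase that cleaves Ang-II, from 13, 15.7 and 13.1 to 9.22, 8.36 and 8.13 (limma adjusted p = 0.00152), and the mineralocorticoid receptor Nr3c2, with a log2 fold change of -0.60. Ier3 did not pass without the first, second or the third CsA or the second 24 h library and Nr3c2 without the first or second CsA or the first or second 24 h library (limma adjusted p up to 0.157 and 0.16). Of the 17 other settings tried, Ier3 passed in 11 and Nr3c2 in 7.

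The 24 h and 2 h libraries of CsA-pretreated aorta were compared directly, to see what the later time added. At 24 h 1021 genes were higher than at 2 h (7.43%) and 1452 were lower (10.6%), with limma. Genes of the first response fell back: 21 of 30 immediate early factors and 15 of 15 heat shock genes were lower at 24 h than at 2 h and 0 were higher. Hspa1a, a heat shock chaperone, was at 2213, 4632 and 2931 at 2 h and 109, 197 and 68 at 24 h (log2 difference -4.77 ± 0.46, limma adjusted p = 2.05e-05), near its CsA level of 201, 117 and 105. It has a near-identical copy, Hspa1b, and the split of reads between them is uncertain. Atf3, a stress-induced transcription factor, went from 279.5, 425 and 504 to 22, 51.4 and 21.1, Fosb from 53.9, 115 and 196 to 11, 12 and 4.75 and Abra, an activator of the serum response, from 85.6, 128 and 106 to 12.6, 16.5 and 6.85 (limma adjusted p = 9.78e-05, 0.000225 and 3.68e-05).

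Against CsA without Ang-II, 0 of the 15 heat shock genes were called at 24 h with limma, and their median was -0.17. Of the immediate early factors 3 of 30 were higher and 1 was lower, where 5.2% of all genes were higher and 3.77% lower. Fosl1, a late Fos family member, was at 0.369, 0.224 and 0.712 in CsA, 3.91, 15.4 and 9.05 at 2 h and 4.41, 2.75 and 3.47 at 24 h (24 h against CsA, limma adjusted p = 0.00966). Higher at 24 h than at 2 h were Igfbp2, at 11.9, 31.2 and 21.4 at 2 h (3.21 ± 0.32, limma adjusted p = 2.49e-05), and Esm1, at 0.945, 1.58 and 2.39 and then 10.4, 10.6 and 13.9 (2.55 ± 0.33, limma adjusted p = 0.000207). Others had been high in CsA and low at 2 h. Among these were Upk3b and Msln, markers of mesothelium, with Upk3b at 14.5, 34.6 and 79.4 in CsA, 0.536, 3.27 and 0.903 at 2 h and 27.8, 18.8 and 16.6 at 24 h. Of the 7 mesothelium markers 5 were higher at 24 h than at 2 h and 0 were called against CsA with limma. Serpina3n, an acute-phase protease inhibitor, had 82 ± 15.9 (mean ± SD, n = 3) in CsA, 28.9 ± 4.84 at 2 h and 189 ± 130.4 at 24 h, the third 24 h library being the highest.

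The response of CsA-pretreated aorta was then compared with that of WT aorta, in which 2483 genes were higher and 2324 lower after 24 h (18.1% and 16.9%). The responses share no library, and the difference was tested as an interaction. It passed for 1294 genes, 622 with a difference above 0 (4.53%) and 672 below 0 (4.89%). Of these, 1034 were called in WT and not in CsA, 92 in CsA and not in WT, 113 in both and 55 in neither. The 2 estimates had opposite signs for 673, counted without a threshold on either change. As 1089 of the 1294 were not called in CsA, an opposite sign need not mean a reversal. The count depended on single libraries, at 579 and 513 without the first or second CsA Ang-II 24 h library, 2456 without the third, 613 and 763 without the second or the third WT library, and 618 without the second WT Ang-II 24 h library.

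Inflammatory and acute-phase genes started from a higher level in CsA-pretreated mice and changed less. Without Ang-II, 13 of the 21 STAT3 targets and acute-phase genes were higher in CsA than in WT and 0 lower, where 13.9% of all genes were higher. Their summed signal was 1139.6, 961 and 971 in WT and 2733, 3643 and 4313 in WT Ang-II 24 h, and 2358, 2489.5 and 4087 in CsA and 2132, 2576 and 5087 at 24 h. In the list of STAT3 targets and acute phase, 15 of 21 were higher in WT and 3 in CsA, and the difference passed for 14 members, all below 0. The shares of all genes were 18.1% higher in WT, 5.2% higher in CsA and 4.89% with a difference below 0. Lcn2, the acute-phase protein lipocalin 2, went from 0.769, 0.356 and 0.547 to 35.8, 38.7 and 42 in WT and from 6.49, 9.92 and 16.8 to 8.94, 18.3 and 41.4 in CsA, a difference in log2 response of -4.38 ± 0.66 (limma adjusted p = 0.00336). The CsA libraries without Ang-II lay above those of WT, and of the 24 h libraries the first 2 lay below WT Ang-II 24 h and the third within its range. Socs3, a feedback inhibitor of STAT3, differed by -1.92 ± 0.47 (limma adjusted p = 0.0203). The difference for Socs3 did not pass without the first or second 24 h or the second WT or the second WT Ang-II 24 h library (limma adjusted p up to 0.0634). Of 23 chemokines and cytokines, 15 were higher in WT and 1 in CsA, and the difference passed for 8, all below 0. Of these 23, 7 were higher in CsA than in WT without Ang-II and 0 lower. Their sum was 332, 386 and 348 in CsA, above every WT library, and 278, 279 and 423 at 24 h, against 444, 697 and 426 in WT Ang-II 24 h. The macrophage markers, 12 of 12 higher in WT and 0 of 12 in CsA, differed for 9, all below 0, and their part in the inflammatory genes was not tested. Their sum went from 183, 128 and 144 to 347, 532 and 522 in WT, and the CsA libraries without Ang-II, given earlier, were already above the untreated WT libraries.

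Chaperones of the endoplasmic reticulum (ER) also differed. Of 21 members, 19 were higher in WT and 2 in CsA, Dnajb11 and Xbp1, and the difference passed for 13, all below 0. Of all genes, 18.1% were higher in WT and 5.2% in CsA, and 4.89% had a difference below 0. The count of 2 in CsA is no result about the list. Their medians were 0.71 in WT and 0.15 in CsA. Of the genes named above, Timp1 rose in both and by less in CsA, with a difference of -2.66 ± 0.42 (limma adjusted p = 0.00336), as did Esm1 (-2.40 ± 0.47, limma adjusted p = 0.00869), Plaur (-1.41 ± 0.34, limma adjusted p = 0.0194) and Pgf (-1.31 ± 0.34, limma adjusted p = 0.0268). Wisp2 went the other way, rising more in CsA (0.84 ± 0.19, limma adjusted p = 0.0166). For Igfbp2, Ctgf and Eln the difference did not pass, at 0.21 ± 0.46, 0.042 ± 0.43 and 0.71 ± 0.38. Prg4, which encodes the lubricating proteoglycan lubricin, rose from 8.26, 2.9 and 6.51 to 162, 358 and 268 in WT and from 28.7, 22.4 and 17.7 to 40.4, 48.1 and 114 in CsA, a difference of -3.99 ± 0.58 (limma adjusted p = 0.00319). The difference for Plaur did not pass without the first 24 h or the second WT library and Pgf without the second CsA or the second 24 h or the first or second WT or the first or second WT Ang-II 24 h library (limma adjusted p up to 0.0518 and 0.0702). In CsA alone, Dnajb11 did not pass without the first or the third CsA or the first or second 24 h library and Prg4 with any 1 library other than the first 24 h one left out (limma adjusted p up to 0.116 and 0.124).

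Among the genes with the largest differences above 0, Adam11 and Mylk4 fell in WT and did not pass in CsA. Adam11, a catalytically inactive member of the ADAM family, went from 88.7, 89.9 and 98.7 to 28.1, 21.8 and 31.8 in WT, while the CsA-pretreated aortas had 43.2, 36 and 43.8 without Ang-II and 46.5, 50.2 and 28 at 24 h, a difference of 1.74 ± 0.25 (limma adjusted p = 0.00319). Mylk4, a myosin light chain kinase family member, went from 509, 552 and 503 to 100.5, 75.7 and 129.5 in WT, and had 261, 267 and 220.2 in CsA and 212, 241 and 79.2 at 24 h, where the third 24 h library was far below the others. The difference for Mylk4 did not pass without the third CsA or the first or second 24 h or the second WT or the second WT Ang-II 24 h library (limma adjusted p up to 0.0721). In both genes the untreated CsA libraries lay below the untreated WT libraries. Of the 20 clock genes, 4 rose and 10 fell in WT at 24 h, 0 were called in CsA with limma, and the difference passed for 10, of which 9 were above 0. Over all genes, 18.1% rose and 16.9% fell in WT, and the difference was above 0 for 4.53% and below 0 for 4.89%. Without Ang-II, 10 of the 20 were already lower in CsA than in WT and 2 were higher, where 11.4% of all genes were lower and 13.9% higher. The summed signal of the list was 2548, 2415 and 2416 in WT and 1421, 1342 and 1440.4 in WT Ang-II 24 h, against 1826, 1877 and 1572 in CsA and 1794, 1737 and 1429.6 at 24 h. Of the 25 contractile genes, 2 rose and 9 fell in WT, and the difference passed for 5, all above 0. For the interferon-inducible genes it passed for 22 of 33, all below 0, as 3 rose in WT and 24 fell in CsA from the high CsA level given above.

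**Figure D5:**
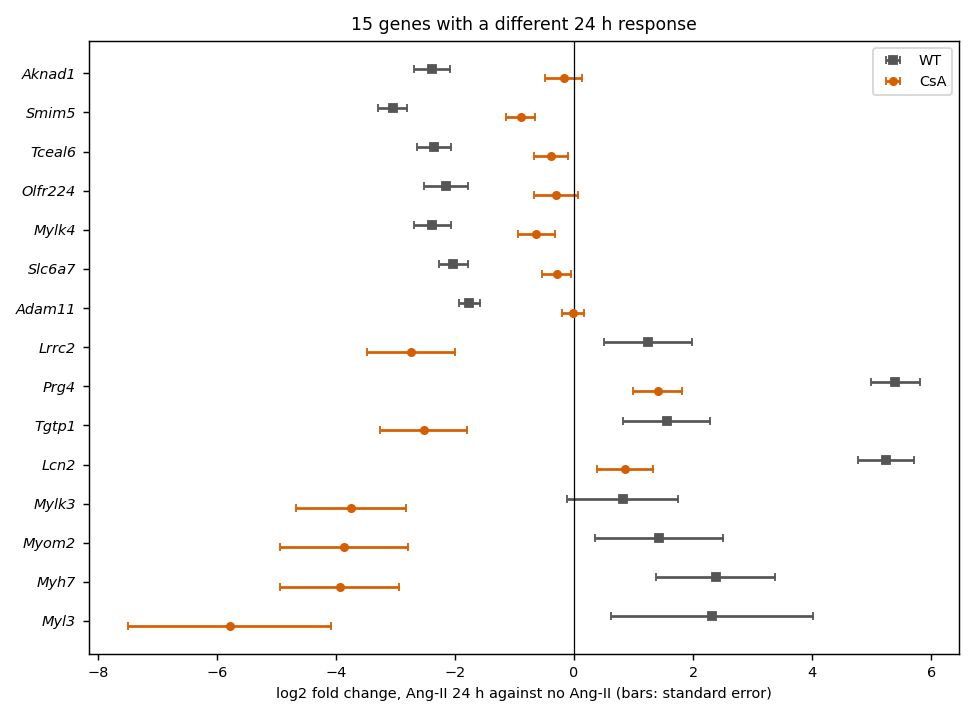
Change after 24 h of Ang-II (x axis, log2 fold change; bars, SE) in WT (squares) and in CsA-pretreated aorta (circles) for 15 genes with large differences (y axis). For Lcn2 the changes are 5.23 in WT and 0.85 in CsA, for Adam11 -1.76 and -0.019, and for Myh7 2.38 and -3.93.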

How the data were processed

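Total RNA from aortas, each library a pool of 3, was sequenced by the authors from oligo-dT libraries, aligned with Bowtie 0.12.7 and quantified with RSEM 1.16 against Ensembl transcripts (GRCm38, per the labels). The deposited signal values hold reads plus 0.5, divided by a library size the authors had scaled; this was found from the values, all of which convert to whole reads (tolerance 0.1). Genes were matched to GENCODE (GRCm38), and 13741 protein-coding genes of 15399 listed were kept. A filter of 1 in at least 2 libraries left 13738.

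log2(signal + 0.5) was fitted with limma 3.58.1 (intensity trend, R 4.3.3) in 1 model of all 18 libraries of the CsA experiment, with Benjamini-Hochberg adjustment over all genes tested and a threshold of 0.05. The script was tested on simulated data. Alternatives were other scalings, pseudocounts and filters, a fit of the compared groups alone, a replicate block, edgeR 4.0.16 and DESeq2 1.42.0 on the recovered reads, and leaving out each library. Same-numbered CsA and CsA Ang-II 2 h libraries deviated together (correlations 0.169, 0.377 and 0.362 over genes), so a blocked fit, chosen after seeing the data, was added for that pair of groups. With 3 libraries per group an exact permutation test cannot go below 0.1 (two-sided) and was not used.

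The members and gene lists were chosen with earlier results of these data known. Named were up to 15 genes per direction with the largest change among those past the threshold, with a mean signal of at least 5 in the higher group and no overlap between libraries, up to 8 per direction for the other comparisons, up to 6 per list, and 10 genes of Cn and Ang-II biology. Genes given as list members below that, such as Insig1, Hmgcs1, Acta2, Myh11 and Socs3, were named after their values were seen. Promoters came from RefSeq (GRCm38.p6); motif searches cover 250 bases before the start. Some genes that meet these rules are not reported here.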

Additional observations from a re-analysis of the deposited data

Results flagged for a closer look

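The response to 24 h of Ang-II differed between CsA-pretreated and WT aorta for 1294 genes by the interaction test (limma). Differences above 0, on the log2 scale, were 2.21 for Aknad1, 2.15 for Smim5, 1.97 for Tceal6, 1.85 for Olfr224, 1.74 for Mylk4, 1.74 for Slc6a7 and 1.74 for Adam11. All 7 genes fell in WT, and of them Smim5 also fell in CsA (-0.90, limma adjusted p = 0.0321). The calls of Olfr224 and Mylk4 were lost under some settings, and those of the other 5 were kept under all 23.

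Differences below 0 were -4.38 for Lcn2, -4.08 for Tgtp1 and -3.99 for Prg4, and those of the muscle genes were -8.10 for Myl3, -6.31 for Myh7, -5.28 for Myom2, -4.56 for Mylk3 and -3.98 for Lrrc2. Lcn2, Prg4 and Myh7 kept the call under all 23 settings, and the calls of Tgtp1, Myl3, Myom2, Mylk3 and Lrrc2 were lost under some. The sum of the cardiac markers ran from 197 to 1910.2 in the CsA libraries and from 76.8 to 483 in WT. It was 496, 499 and 139 in WT Ang-II 24 h and 118, 99.2 and 80.7 in CsA Ang-II 24 h. Its part in these differences was not tested.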

How the results depend on the processing

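Another scaling, pseudocount, filter or gene set, edgeR and DESeq2 gave 1162 to 1839 called genes for the main comparison, against 1233. The higher genes numbered 1081 with quantile normalization and 1149 with DESeq2, against 715, and DESeq2 called 2005 for the difference from WT. In a fit of only the groups compared, 396 were called, 272 higher and 124 lower, 130 of them over 2-fold, and 836 against the 2 h libraries. Leaving out 1 library gave 487 to 1814 called genes, 302 to 854 higher, 185 to 960 lower and 151 to 417 over 2-fold, 513 to 2456 for the difference from WT, and 1616 to 2264 against 2 h. The fits assume that a group left with 2 libraries varies like the others.

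Replicate numbers did not pair the CsA and CsA Ang-II 24 h libraries: same-numbered libraries correlated at 0.0589, -0.0276 and 0.108 in their deviations, and 3 of 6 correlated best with their own number. With a replicate block 1014 genes were called, 1073 for the difference from WT and 2268 against 2 h. For CsA Ang-II 2 h against CsA, same-numbered libraries did deviate together. There 1690 genes were higher and 1077 lower without the block, and 1560 and 1000 with it. In a fit of those 6 libraries alone they were 1130 and 596 without it and 1000 and 441 with it.

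Changes close to 0 turned direction. With 1 library left out Ppp3cb ranged from -0.015 (without the second 24 h library) to 0.13 and Smad2 from -0.024 (without the second CsA library) to 0.16. The list medians were -0.026 for growth arrest without the second CsA library, 0.024 for endothelin, nitric oxide and natriuretic peptides with a filter of 5 in 3 libraries, 0.12 for T, NK and B cells with quantile normalization, and for the circadian clock 0.019 with quantile normalization, 0.0088 with median-ratio scaling, 0.0026 without the third 24 h library (-0.11 without the third CsA library), 0.023 with edgeR and 0.044 with DESeq2. The cause was not tested. Depth limits genes near 0.5 signal.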

Other observations

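Some genes of the marker lists changed in single members. Clec3b, a fibroblast gene that encodes tetranectin, fell from 70.8, 86.2 and 103 to 48.3, 36.3 and 47 (log2 fold change -0.97 ± 0.19, limma adjusted p = 0.00673), while Mfap5, a microfibril protein of the same marker list, rose from 122, 142 and 177 to 309, 350.1 and 204 (limma adjusted p = 0.00454). Kdr, the main vascular endothelial growth factor receptor of endothelium, fell from 80.6, 76.2 and 84.8 to 27.2, 31.2 and 60.7 (limma adjusted p = 0.0413), and 2 of 12 endothelial markers fell in all, where 3.77% of all genes were lower. Kdr did not pass with any 1 library other than the third 24 h one left out (limma adjusted p up to 0.16). The endothelial marker sum was 1282, 1507 and 1384 in CsA and 1044, 1067 and 1708 at 24 h, so the third 24 h library was above every CsA library although its Kdr was below them.

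Dusp4, a phosphatase that restrains mitogen-activated protein kinases, fell from 17.4, 7.31 and 12.7 to 3.6, 1.64 and 5.46 (limma adjusted p = 0.0343), against the direction of the other 3 immediate early factors that passed. Dusp4 did not pass without the first or the third CsA or the first or second 24 h library (limma adjusted p up to 0.15). Slc4a1, the erythrocyte anion exchanger, was at 0.0527, 0.0204 and 0.0963 in CsA and 4.79, 1.54 and 0.857 at 24 h (limma adjusted p = 0.00812), moving with the erythrocyte marker sum.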
